A study of Mus musculus with 6 samples.

Results

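The genes described here encode the subcortical maternal complex and the cytoplasmic lattices of the mouse egg: Nlrp5, Ooep, Tle6, Khdc3, Padi6, Nlrp2, Nlrp4f and Zbed3. They were chosen by name, all 8 were found once in the table of 36065 genes through their Ensembl identifiers, and all 8 passed the filter on low values. RNA was sequenced from mouse embryos at the 1-cell stage, wild type in genotype and cultured in vitro. They received CBR-5884 together with S-adenosylmethionine (CBR+SAM), CBR-5884 alone (CBR), or DMSO as solvent control, with 2 biological replicates, as the study's design text calls them, in each of the 3 groups. CBR-5884 is a small-molecule inhibitor of serine synthesis, and S-adenosylmethionine is the cell's main methyl donor. No group received S-adenosylmethionine alone. The dose, the length of culture, the strain and the number of embryos per library are not given in the sources used here.

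The subcortical maternal complex is a protein assembly that forms in the growing oocyte and lies beneath the membrane of the egg and the early embryo. Its core is built by NLRP5 (also called MATER), OOEP (FLOPED) and TLE6, joined by KHDC3 (FILIA), and embryos of mothers that lack Nlrp5, Ooep or Tle6 arrest during early cleavage. The same proteins, with PADI6, are needed for the cytoplasmic lattices, fibres on which the egg stores maternal proteins. The mRNAs are made in the oocyte, so the 1-cell embryo carries them as a maternal supply, and a level measured here does not separate storage from decay.

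The cDNA kit, SMART-Seq v4, primes on the poly(A) tail. For that reason the annotated 3′ ends of the 8 transcripts are shown first. Each sequence is the last 30 bases of the longest protein-coding transcript of GENCODE M21 (build mm10), written 5′ to 3′ in DNA letters, and capitals mark the poly(A) signal AATAAA or its common variant ATTAAA.
Nlrp5: gaatgaAATAAAcacagcatttagaaaagc
Ooep: aactcaggaccacaggctatgagtagcata
Tle6: agttgcgtgtAATAAAacaattgaaatggc
Khdc3: ttaaagtattctAATAAAaaaaaaattgca
Padi6: agagccAATAAAgcatggtattctgaatgt
Nlrp2: attggggAATAAAagggaaaacatgcatga
Nlrp4f: gttttatATTAAAgaatagtagtcatttcc
Zbed3: tttttttttAATAAActtttatttatctgc

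A poly(A) signal stood within 40 bases of the annotated end in 7 of the 8 transcripts, against 78.2% of the 5570 protein-coding genes averaging 10 or more. Ooep was the exception: its nearest signal began 621 bases before the annotated end of a 2138-base transcript. Whether the embryos' Ooep mRNA ends there was not tested. The deposited values divide by length, so a shorter mRNA would make the value printed for Ooep too low. The cytoplasmic polyadenylation element, which CPEB proteins bind to lengthen the tails of stored egg mRNAs, was searched as TTTTAT or TTTTAAT on the transcript strand within the last 100 bases. It was found in 2 of the 8, Nlrp4f and Zbed3, and in 21.6% of the same 5570 genes. In Zbed3 the TTTTAAT overlaps the poly(A) signal, and in Nlrp4f the TTTTAT lies directly before it. These matches describe the letters of the annotated ends only.

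By their titles the libraries were those of early embryos. The oocyte and zygote markers listed here do not tell an embryo from an unfertilised egg. All 7 oocyte and zygote markers, among them Zp3, Gdf9 and Bmp15, had values of at least 1 in every library, with sums between 18900 and 25590. Of 10 cumulus and granulosa markers 2 were at or above 1 throughout, Serpine2 and Cyp19a1, the latter at 8.14 to 13.6. The list's sum was 616 and 237 in CBR+SAM, 580 and 581 in CBR, and 533 and 509 in DMSO, nearly all of it Serpine2, while the highest value of Has2 was 0.108 and that of Foxl2 0.0129. Sperm markers summed to 10.3 to 15.5, nearly all of it Prm2, with Tnp1 and Smcp at 0, and blood markers to at most 0.635. The part of other cells in the results below was not tested. In bulk RNA, fewer embryos or cells of a type and less RNA per cell cannot be told apart. The values come without read counts, but the low values among 2165 single-transcript genes lay on steps. Each library had 501 to 563 such low values, with 81.6% to 82.9% of them within 0.1 of a whole number of reads. From these steps the depth was about 50.4 to 64.7 M reads per library if every gene used its longest transcript. On the same basis the members stood on about 969 reads (Khdc3, CBR replicate 1) to 219000 reads (Zbed3, CBR replicate 2). These are amplified reads without molecular identifiers, from an unknown number of embryos, so they are not numbers of independent molecules.

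The 8 mRNAs spanned a wide range of levels, given here as the deposited abundance per transcript length. Zbed3 averaged 4380 over the 6 libraries and ranked 32 of all genes. Nlrp4f, at 1685, ranked 92, and Ooep, at 1395, ranked 106. The 5 others were lower: Nlrp5 averaged 136 (rank 1120), Padi6 110 (1346), Tle6 94.5 (1522), Khdc3 30.4 (3399) and Nlrp2 19.9 (4304). Zbed3 was 198 to 247 times as high as Nlrp2 within a library, and Zbed3, Nlrp4f and Ooep together made up 94.4% to 95.4% of the members' sum. That sum was 0.738% to 0.872% of each library's total.

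**Figure D1:**
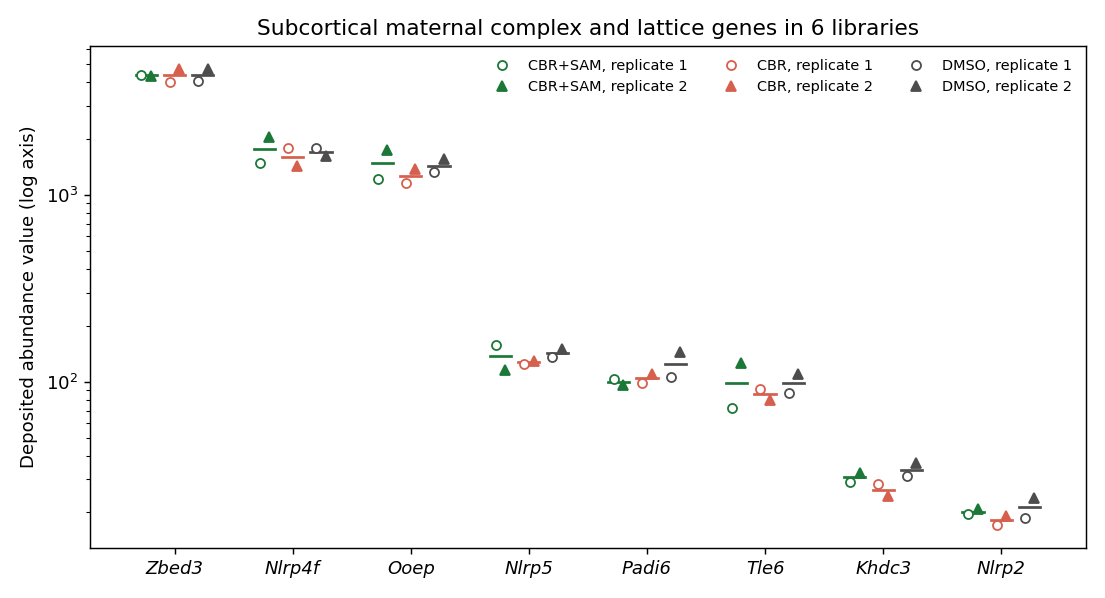
Deposited abundance (log axis) of the 8 genes, ordered by mean level, in CBR+SAM, CBR and DMSO libraries. Circles are first and triangles second replicates, and bars are group means (n = 2). The levels fall into a high set from Zbed3 (mean 4380) to Ooep (1395) and a low set from Nlrp5 (136) to Nlrp2 (19.9), with groups of 1 gene close together.

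Not every step in this order was larger than the spread. Zbed3 lay above Nlrp4f, Ooep above Nlrp5, Tle6 above Khdc3, and Khdc3 above Nlrp2, with no overlap over the 6 libraries. Nlrp4f and Ooep overlapped, although Nlrp4f was the higher in 6 of 6 libraries, by 1.03 to 1.54 times. Nlrp5, Padi6 and Tle6 overlapped as well. Nlrp5 was above Padi6 in 6 of 6 libraries (1.05 to 1.52 times) and Padi6 above Tle6 in 5 of 6 (0.768 to 1.44 times). The values of the complex's core genes were thus far from equal: Ooep stood 7.73 to 15.1 times above Nlrp5 and 12.6 to 17.3 times above Tle6. The cDNA was primed on the poly(A) tail, and whether Ooep mRNA ends where annotated was not tested. These are therefore ratios of deposited values, not of measured mRNA amounts.

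Reads that match several genes limit some of these levels. Of the stretches of 31 bases in each transcript, the default unit that kallisto matches, none was shared with another gene in Padi6 and Zbed3, and 3.94% to 4.36% in Ooep, Tle6 and Nlrp2. The gene that shared most with Nlrp2, Gm21926 (3.14%), averaged 7.08. Nlrp5 shared 16.3%, mostly with its pseudogene Nlrp5-ps, which averaged 0.59. Nlrp4f shared 18.4%. Nlrp4g, a transcribed pseudogene that averaged 301, held 11.9% of all the stretches of Nlrp4f. Khdc3 shared 45.7% with Gm20509, an overlapping gene on the same strand that averaged 1.67. The values of Nlrp4f and Khdc3, which share the most, depend most on how reads were divided.

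**Figure D2:**
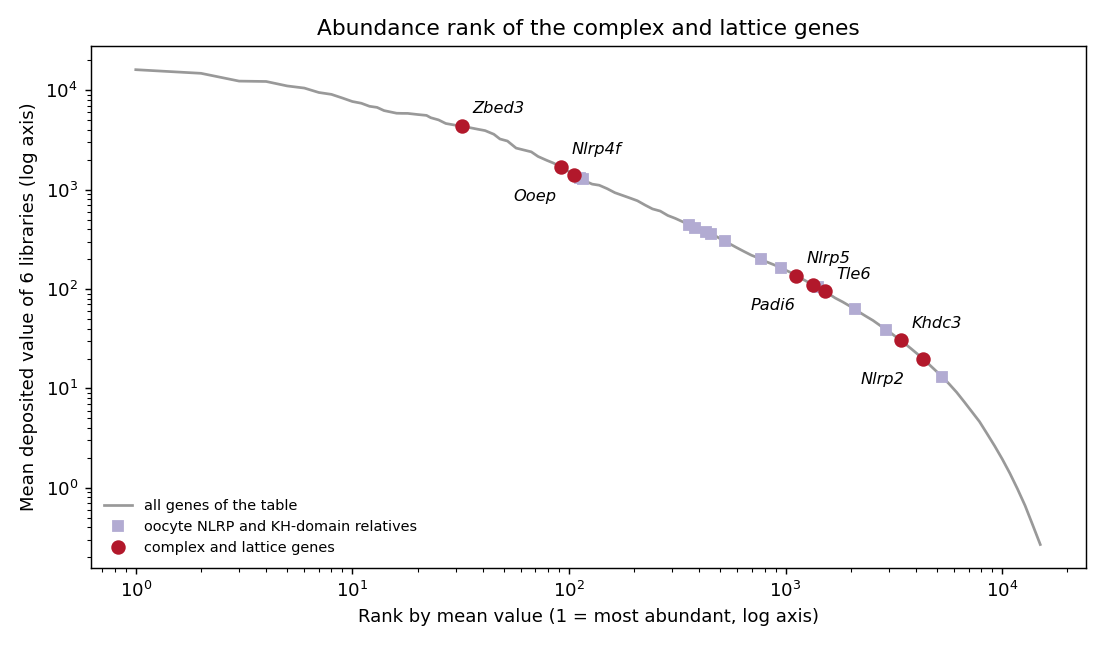
Mean deposited value against rank for all genes (grey line), the 8 complex and lattice genes (red circles) and their NLRP and KH-domain relatives with a mean of at least 1 (violet squares), on log axes. Zbed3, Nlrp4f and Ooep lie among the 106 most abundant genes, and Khdc3 and Nlrp2 lie at ranks 3399 and 4304.

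Set beside the relatives listed for each family, Padi6, Tle6, Zbed3, Ooep and Nlrp4f had the highest means, while Khdc3, Nlrp2 and Nlrp5 did not. Padi6, a peptidylarginine deiminase relative without which eggs form no lattices, averaged 110, and the next of the other 4 Padi genes, Padi2, averaged 1.29. Tle6, a Groucho-type co-repressor relative, averaged 94.5, against 14.1 for Aes and 12.3 for Tle4. Zbed3 was at 4380 and the BED zinc finger relatives Zbed4 and Zbed5 at 15.8 and 6.29. Of the relatives listed, 2 of 3 ZBED and 5 of 6 TLE genes were found by name. Among KH-domain relatives Khdc1b, at 1321, came close to Ooep, which was the higher of them in 3 of 6 libraries only, while Dppa5a, which lies beside Ooep on chromosome 9, averaged 104. Among the oocyte NLRP genes Nlrp4f was the most abundant, followed by Nlrp9c (1271), Nlrp14 (438) and Nlrp9b (410), and Nlrp2 was below all of the relatives except Nlrp4c (13.2) and the pseudogene Nlrp4d.

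The comparison of CBR with DMSO asks whether blocking serine synthesis alters this maternal supply. None of the 8 genes passed the test (limma, Benjamini-Hochberg adjustment over 12249 genes, threshold 0.05), and neither did any other gene, a background of 0%. No member reached an unadjusted p under 0.05, which 260 genes (2.12%) did. All 8 members had a lower mean log2 value with CBR, with log2 changes of -0.34 to 0.00 and a median of -0.19. The median over all tested genes was -0.01, and 51.7% of them had a lower and 48.3% a higher mean. With median-ratio scaling the count was 7 of 8. Without DMSO replicate 2 the median was -0.06 and without DMSO replicate 1 it was -0.33.

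Khdc3, a KH-domain protein needed for correct chromosome numbers in cleaving embryos, had the widest difference of the 8. It stood at 28.3 and 24.5 in CBR, against 31.2 and 36.5 in DMSO. The means were 26.4 ± 2.68 in CBR and 33.9 ± 3.76 in DMSO (SD, n = 2 each), and the groups did not overlap. The log2 change was -0.34 (SE 0.17, 95% interval -0.74 to 0.05), with an adjusted p of 1 by limma. Khdc3 (ENSMUSG00000092622) lies on chromosome 9 from 73101836 to 73104438 in mm10, on the plus strand.

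Nlrp5, a leucine-rich repeat protein and one of the first maternal-effect genes known in mice, stood at 125 and 129 in CBR, against 136 and 151 in DMSO. The means were 127 ± 3.21 in CBR and 143 ± 10.1 in DMSO (SD, n = 2 each), with no overlap. Its log2 change was -0.17 (95% interval -0.60 to 0.25). Nlrp5 and Khdc3 were the only members whose CBR and DMSO libraries did not overlap, both lower with CBR. Of all genes tested 33% did not overlap, 17.3% lower and 15.7% higher. Nlrp5 (ENSMUSG00000015721) lies on chromosome 7 from 23385889 to 23441922, plus strand.

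Ooep, which encodes a core protein with an atypical KH domain, stood at 1153 and 1381 in CBR, against 1322 and 1548 in DMSO. The groups overlapped, and the log2 change was -0.18 (-0.67 to 0.31). Tle6 stood at 91.7 and 79.8 in CBR, against 87.2 and 111 in DMSO, also with overlap. Its log2 change of -0.20 had the widest interval of the 8, -0.83 to 0.44. Ooep (ENSMUSG00000032346) lies on chromosome 9 from 78376109 to 78378725 and Tle6 (ENSMUSG00000034758) on chromosome 10 from 81590904 to 81601073, both on the minus strand.

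Padi6 stood at 99.1 and 110 in CBR, against 106 and 144 in DMSO. The means were 104 ± 7.51 in CBR and 125 ± 26.5 in DMSO (SD, n = 2 each). DMSO replicate 2 was the high library, and the groups overlapped. The log2 change was -0.24 (-0.67 to 0.18). Padi6 (ENSMUSG00000040935) lies on chromosome 4 from 140727355 to 140742643, minus strand.

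The 2 further NLRP members and Zbed3 overlapped between the groups. Nlrp2, a maternal-effect gene reported to take part in the complex, stood at 17.1 and 19.2 in CBR, against 18.7 and 23.8 in DMSO, a log2 change of -0.21 (-0.63 to 0.21). Nlrp4f, another reported member, stood at 1777 and 1423 in CBR, against 1781 and 1615 in DMSO, a change of -0.09 (-0.56 to 0.38). Zbed3, an axin-binding zinc finger protein reported in the complex, stood at 4041 and 4732 in CBR, against 4083 and 4715 in DMSO. The CBR libraries enclosed the DMSO ones, and its log2 change of 0.00 had the narrowest interval, -0.37 to 0.36. Nlrp2 (ENSMUSG00000035177) lies on chromosome 7 from 5298547 to 5351035, minus strand. Nlrp4f (ENSMUSG00000032999) lies on chromosome 13 from 65177111 to 65205977, minus strand, and Zbed3 (ENSMUSG00000041995) on chromosome 13 from 95323612 to 95337841, plus strand.

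**Figure D3:**
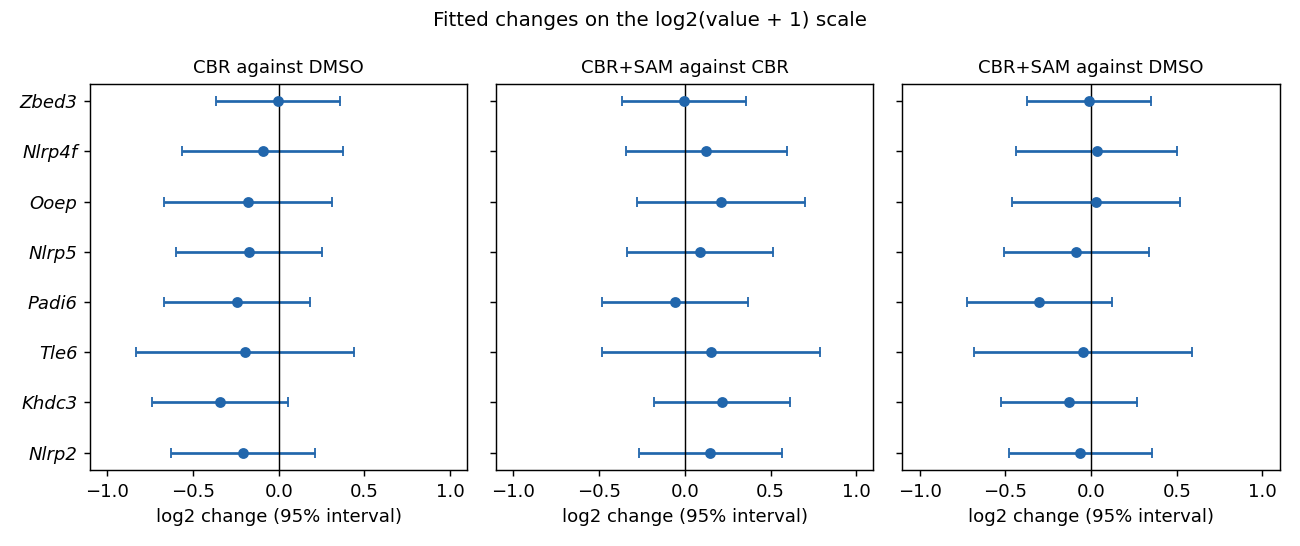
Log2 changes of the 8 genes on the log2(value + 1) scale with 95% intervals from limma, in CBR against DMSO, CBR+SAM against CBR and CBR+SAM against DMSO (n = 2 per group). Every interval includes 0, and all lie between -0.83 and 0.79.

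The comparison of CBR+SAM with CBR asks what the added methyl donor does in inhibited embryos. It shares its CBR libraries with the comparison above, so the 2 sets of changes are not independent. Again none of the 8 genes passed, against 1 of 12249 genes (0.00816%), the processed pseudogene Gm16550, and none had an unadjusted p under 0.05, against 3.09% of all genes. The members had log2 changes of -0.06 to 0.22 with a median of 0.14, 6 of them positive, beside a median of 0.01 over all genes, of which 52.4% were higher and 47.6% lower. The count was 4 of 8 without CBR+SAM replicate 2 and 7 of 8 without CBR replicate 2. The gene called was lost without either CBR library or CBR+SAM replicate 2, and 8 genes, no member among them, were called without CBR+SAM replicate 1.

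Khdc3 stood at 29.0 and 32.7 in CBR+SAM, against 28.3 and 24.5 in CBR, a log2 change of 0.22 (95% interval -0.18 to 0.61). Nlrp2 stood at 19.6 and 20.8 in CBR+SAM, against 17.1 and 19.2 in CBR, a change of 0.15 (-0.27 to 0.56). These were the 2 members whose groups did not overlap, both higher in CBR+SAM. Of all genes tested 27.5% did not overlap, 15% higher and 12.5% lower. The other 6 members overlapped.

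The largest gaps between the CBR+SAM replicates were those of Tle6, Ooep, Nlrp4f and Nlrp5. Tle6 stood at 72.0 and 126 in CBR+SAM, against 91.7 and 79.8 in CBR, so the CBR+SAM libraries enclosed the CBR ones. Ooep stood at 1220 and 1748 in CBR+SAM, against 1153 and 1381 in CBR. Nlrp4f, at 1479 and 2036 in CBR+SAM, against 1777 and 1423 in CBR, spread in the same way. Nlrp5 went against them, at 158 and 115 in CBR+SAM, against 125 and 129 in CBR, with CBR+SAM replicate 2 now the lowest of all 6 libraries. Without CBR+SAM replicate 2 the changes of Tle6, Ooep and Nlrp4f were -0.25, -0.05 and -0.11, against 0.15, 0.21 and 0.13 with it, and the members' median was 0.00. Padi6, at 104 and 96.5 in CBR+SAM, against 99.1 and 110 in CBR, and Zbed3, at 4393 and 4315 in CBR+SAM, against 4041 and 4732 in CBR, had changes of -0.06 and -0.01.

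CBR+SAM against DMSO sets inhibited embryos given the methyl donor beside solvent controls, with libraries shared with both comparisons above. None of the 8 genes passed, against 0.00816% of all genes, again Gm16550 alone, which was lost without DMSO replicate 1 or either CBR library, and none had an unadjusted p under 0.05, against 2.14%. The median log2 change of the members was -0.05, with a range of -0.30 to 0.03, beside 0.00 over all genes. A lower mean was found for 6 of the 8, beside 51% of all genes, while 49% were higher. Once every column was scaled to the same sum the count was 8 of 8. That scaling lowers every gene in this comparison, because the CBR+SAM columns had the larger sums. The share of all genes under it was not computed. The median was -0.21 without CBR+SAM replicate 2, -0.19 without DMSO replicate 1 and 0.04 without DMSO replicate 2. Padi6 was the only member without overlap, at 104 and 96.5 in CBR+SAM, against 106 and 144 in DMSO, with a log2 change of -0.30 (95% interval -0.73 to 0.12, adjusted p = 1, limma). Of all genes tested 24.5% did not overlap, 12.1% lower and 12.4% higher. The other changes were -0.13 for Khdc3, -0.09 for Nlrp5, -0.06 for Nlrp2, -0.05 for Tle6, -0.01 for Zbed3 and 0.03 for both Ooep and Nlrp4f.

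A test that misses its threshold does not show equal levels, so the intervals set the limit. Over the 3 comparisons the lowest bound was a 0.562-fold and the highest a 1.72-fold level, both for Tle6. For Zbed3 the bounds ran from 0.771-fold to 1.28-fold. The median half-width of the members' intervals was 0.42 log2, close to the 0.43 log2 of all genes whose mean reached 10.

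The members did not vary as 1 unit across the libraries. In DMSO replicate 2, 7 of 8 stood above their own mean over the 6 libraries, with a median deviation of 0.21 log2. Nlrp4f was the exception. In CBR replicate 1 the reverse held, with 1 of 8 above its mean, again Nlrp4f. In CBR+SAM replicate 2 they parted, from 0.43 log2 above the mean for Tle6 and 0.34 for Ooep to 0.22 below it for Nlrp5 (a deviation of -0.22). The ratio of Nlrp5 to Tle6 was accordingly 2.19 and 0.919 in CBR+SAM, 1.36 and 1.62 in CBR, and 1.56 and 1.36 in DMSO. CBR+SAM replicate 2 also stood apart over all genes whose mean reached 10: their deviations had an SD of 0.37 there, against 0.20 to 0.22 in the other 5. Its cumulus marker sum was the lowest, but that sum is nearly all Serpine2. The cumulus marker Cyp19a1 stood at 11.9 there and was lowest in DMSO replicate 1, at 8.14. The part of these differences in the result was not tested.

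**Figure D4:**
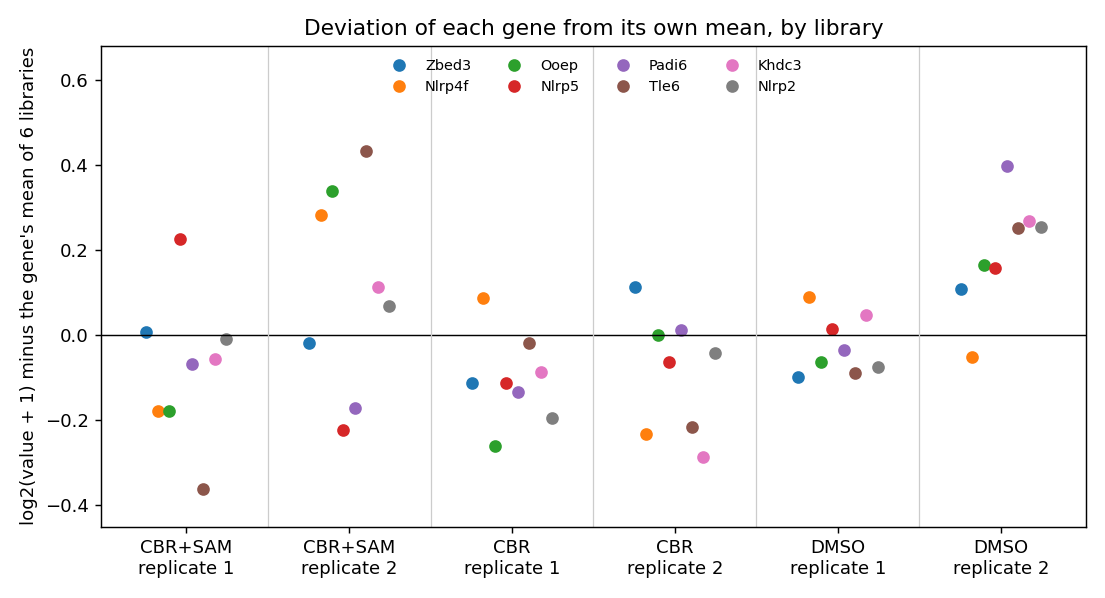
Deviation of log2(value + 1) of each of the 8 genes from its own mean of the 6 libraries, by library and coloured by gene. In DMSO replicate 2, 7 of 8 genes lie above 0, and in CBR+SAM replicate 2 they range from -0.22 (Nlrp5) to 0.43 (Tle6).

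Single members differed in how steady they were. Zbed3 varied least, with a within-group SD of 0.13 log2 and a highest value 1.17 times the lowest. Tle6 varied most, with an SD of 0.36 and a ratio of 1.75, a spread above that of 90.3% of all genes averaging 10 or more. The median SD was 0.19 over the members and 0.18 over those 5939 genes.

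As a description over 6 libraries, the genes whose pattern was most like the members' average deviation were Nbr1 (r = 0.99), Tent5b (0.98), Omd (0.98), Mrps31 (0.97) and Pik3cd (0.97). Of 5580 protein-coding genes compared 55 reached r = 0.9. Between members r ran from -0.65 for Nlrp5 and Nlrp4f to 0.80 for Ooep and Tle6. All these values rest on the same 6 libraries.

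Genes around the complex were measured in the same fit, and none of them passed in any of the 3 comparisons. That holds for the 9 oocyte NLRP relatives tested, the 4 KH-domain, 3 TLE, 1 PADI and 2 ZBED relatives, the 5 reported partners and stored proteins, the 22 other maternal-effect genes and the 6 oocyte transcription factors. In CBR against DMSO 3 of the 9 NLRP relatives had positive changes, with a median of -0.05, and 11 of the 22 maternal-effect genes, with a median of 0.01. In CBR+SAM against CBR the counts were 5 of 9 (median 0.05) and 15 of 22 (0.06), and in CBR+SAM against DMSO 4 of 9 (-0.17) and 15 of 22 (0.05). The 4 KH-domain relatives all had negative changes in CBR against DMSO (median -0.11), all positive ones in CBR+SAM against CBR (0.20), and 2 of 4 positive in CBR+SAM against DMSO (0.03). Both ZBED relatives were negative in CBR against DMSO (-0.18) and positive in CBR+SAM against CBR (0.16), with 1 of 2 positive in CBR+SAM against DMSO (-0.02). Of the 6 oocyte transcription factors 1 was positive in CBR against DMSO (median -0.04), and 4 were positive in each of the others, CBR+SAM against CBR (0.05) as well as CBR+SAM against DMSO (0.02). Of the 5 partners 3, 3 and 2 were positive in the same order (0.03, 0.02 and -0.07), and of the 3 TLE relatives 2, 1 and 1 (0.06, -0.09 and -0.02). Padi2, the PADI relative tested, had changes of 0.09, 0.32 and 0.41. These comparisons share libraries, so their signs are not independent. The DNA mismatch repair gene Pms2 was the only one of all these genes with an unadjusted p under 0.05, in CBR+SAM against CBR, and is named after its value was seen. It stood at 5.72 and 4.95 in CBR+SAM, against 8.67 and 8.06 in CBR, a log2 change of -0.56 with an adjusted p of 0.988 by limma.

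Nlrp14, whose protein is reported to stabilise the chromatin factor UHRF1, had the widest change among the NLRP relatives in CBR against DMSO. It stood at 308 and 413 in CBR, against 356 and 675 in DMSO, a log2 change of -0.46 with DMSO replicate 2 as the high library. In CBR+SAM it stood at 379 and 496. Among the partners the ubiquitin pathway genes Skp1a and Ube2d3 averaged 3427 and 3005. Uhrf1 and Dnmt1 were lower and are given after their values were seen. Uhrf1, whose protein is stored on the lattices, stood at 60.01 and 66.4 in CBR+SAM, 69.2 and 56.3 in CBR, and 62.6 and 57.6 in DMSO. The DNA methyltransferase gene Dnmt1 stood at 137 and 107 in CBR+SAM, 124 and 158 in CBR, and 120 and 149 in DMSO. Nobox, a homeobox factor that drives oocyte genes, stood at 94.8 and 86.9 in CBR+SAM, 90.05 and 94.7 in CBR, and 95.9 and 103 in DMSO, and the other factors were lower. Lhx8 averaged 54.1 and Tbpl2 49.0. The most abundant of the other maternal-effect genes were Dppa3 at 14790, Btg4 at 5978 and Uchl1 at 1118.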

How the data were processed

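Per the labels' protocols, the SMART-Seq v4 kit gave the cDNA and Nextera XT the libraries. Listed in the submitters' processing notes, with no version, role or setting, are kallisto, fastp and DESeq2, and the build mm10. The deposited table holds 1 signal value per gene and library. The values resemble TPM, but columns sum to 956209 to 1059420, so they are not plain TPM, and the step behind this is not given in the sources used here. Symbols and coordinates came from GENCODE M21, which matched 35820 of 36065 rows.

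Values were transformed as log2(value + 1). The 12249 genes that reached 1 in 2 or more libraries were fitted over the 3 groups with limma 3.58.1 in R 4.3.3 (mean-variance trend, 3 residual degrees of freedom, Benjamini-Hochberg adjustment per comparison). With 2 libraries on each side, the smallest two-sided p that exact permutation allows is 0.333, so no such test was run. The design text calls replicates biological without naming separate cultures or animals, so the p-values reflect spread among libraries that may be partly technical.

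All 8 members were named, and of each related list the most abundant genes (up to 3) and any gene called. Genes named outside this rule are said to be so or stand among families described whole. The members and lists were chosen with earlier results of these data known. The depth estimate rests on a step sought between 30 and 90 and chosen for the best match, where 20.0% would lie within 0.1 of a whole number by chance.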

Additional observations from a re-analysis of the deposited data

How the results depend on the processing

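Under 16 alternatives the number of members called stayed at 0 in all 3 comparisons, and no member's adjusted p fell below 0.198 (limma). Of 384 member values 24 changed sign, all with a log2 change of at most 0.352 in size. Many of the 384 could not change sign. The filters, array weights, the 4 libraries compared alone and leaving out a library of the third group repeated the main log2 change. The count of 24 is thus no measure of how steady the signs were. The scalings gave 3 of the sign changes. In CBR against DMSO this was Zbed3, at 0.0121 with median-ratio scaling. In CBR+SAM against DMSO, with columns scaled to the same sum, these were Ooep at -0.0539 and Nlrp4f at -0.0507. All others came from leaving out a library of a compared group. The replicate block, with the replicate number as a term, cannot move a log2 change in this balanced design (medians of -0.189, 0.136 and -0.0534 in the order of the report), so that says nothing of stability, and 0 members were called with it. Over 5939 genes the replicate differences of CBR and DMSO correlated at 0.599. The correlation was weaker for CBR+SAM, at 0.12 with CBR and 0.258 with DMSO. The labels give no shared source for a number.

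Leaving out 1 library in turn moved the members' median between -0.331 and -0.0551 in CBR against DMSO, between 0.000481 and 0.243 in CBR+SAM against CBR, and between -0.206 and 0.0394 in CBR+SAM against DMSO. The number with a lower mean ran from 7 to 8, from 1 to 4 and from 4 to 7, and the count of called genes from 0 to 2, from 0 to 8 and from 0 to 3. In CBR against DMSO the ranges that crossed 0 were -0.253 to 0.0676 for Nlrp4f and -0.119 to 0.109 for Zbed3. In CBR+SAM against CBR they were -0.135 to 0.313 for Nlrp5, -0.0493 to 0.469 for Ooep, -0.246 to 0.549 for Tle6, -0.131 to 0.0149 for Padi6, -0.105 to 0.356 for Nlrp4f and -0.12 to 0.107 for Zbed3. In CBR+SAM against DMSO they were -0.309 to 0.139 for Nlrp5, -0.23 to 0.289 for Ooep, -0.443 to 0.352 for Tle6, -0.226 to 0.104 for Nlrp2, -0.198 to 0.263 for Nlrp4f and -0.115 to 0.0926 for Zbed3. Called genes numbered 1 in CBR against DMSO on the 4 libraries compared alone. They numbered 0 in each other comparison with pseudocount 0.1, without a filter, with a mean of at least 10, and among protein-coding genes. The protein-coding set leaves out the pseudogene called. So does the mean of at least 10, since its highest value was 8.585. Otherwise the cause was not tested.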

Other observations

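Cfl1, the actin-severing protein cofilin that acts downstream of the complex in the egg, differed more between replicates than between groups. It stood at 556 and 251 in CBR+SAM, 450 and 226 in CBR, and 517 and 264 in DMSO, first replicate given first. In each group the library numbered 1 was thus the higher. Zar1, named after its values were seen, a maternal-effect gene that binds stored mRNA, had the same arrangement, at 157 and 117 in CBR+SAM, 176 and 114 in CBR, and 166 and 111 in DMSO. Ooep had the opposite one, with replicate 2 above replicate 1 by 0.52 log2 in CBR+SAM, 0.26 in CBR and 0.23 in DMSO, and so did Nlrp2, by 0.08, 0.15 and 0.33. The labels do not say what a shared number marks. Dppa5a, which lies at 78367052 to 78368177 on chromosome 9 near Ooep, stood at 77.3 and 142 in CBR+SAM, 97.1 and 78.9 in CBR, and 86.5 and 143 in DMSO, and its highest libraries were DMSO replicate 2 and CBR+SAM replicate 2, as for Tle6 and Ooep.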
